A study of Mus musculus with 14 samples.

Results

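The data described here are the 4 libraries of wild-type C57BL/6J mouse skin in a set of 14 RNA libraries: 2 from skin treated with imiquimod and 2 from skin treated with DMSO. They were chosen by their labelled genotype and treatment and are described across all genes. The wild-type mice carried no floxed allele and no Cre, and they are the groups of this set in which Nedd8 was not engineered. Imiquimod was given as a cream of 5% strength (Aldara) every day from day 0 to day 7. The labels do not describe a cream without drug, how the DMSO was given, which library came from shaved back and which from right ear, or how many animals a library holds, so the p-values measure the spread between libraries. The design text of the series describes a NEDD8 inhibitor on back skin, whereas the labels of these libraries name imiquimod, and the groups follow the labels. The other 10 libraries are used only for the spread of the model and for comparisons at the end. Cre-negative skin (NEDD8 fl/fl, K14-CreERT neg) gave 2 libraries with imiquimod and 3 with DMSO. Knockout skin (NEDD8 fl/fl, K14-CreERT pos, with the recombinase under a keratin 14 promoter and induced on 5 days before the start) gave 2 with imiquimod and 3 with DMSO.

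Imiquimod is an agonist of Toll-like receptor 7, an endosomal sensor of single-stranded RNA that signals through the adaptor MyD88 and is best known from plasmacytoid dendritic cells and other myeloid cells. In mouse skin, the cream is widely used as a model of psoriasis: dendritic cells make IL-23, which drives IL-17 and IL-22 from skin lymphocytes, and these cytokines act on keratinocytes. The keratinocytes then make antimicrobial proteins, neutrophil chemokines and the keratins of a healing wound, and change the order in which they cornify.

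The kit (QuantSeq forward) sequences a tag near the 3′ end of polyadenylated transcripts, so a level is given in CPM, the counts of a gene scaled to a common library total with TMM factors, and is compared here between libraries of the same gene, not between genes. Total counts were 31960197 and 13574424 in the imiquimod libraries and 8294616 and 14748319 in the DMSO libraries. S100a8 alone took 8.21% and 4.27% of all counts with imiquimod and at most 0.0181% with DMSO, and the TMM factors were 0.665 and 0.946 with imiquimod and 1.20 and 1.37 with DMSO. All 10 genes listed to check for skin, among them keratins of epidermis and collagens of dermis, were detected in all 4 libraries. Xist counts were above Y-linked counts in all 4, so all 4 libraries read as female. Replicates of a group were different libraries, with a median difference between replicates of 0.607 (log2) with imiquimod and 0.356 with DMSO over 16027 genes. The second DMSO library was rich in hair shaft RNA. Listed genes of hair shaft and inner root sheath summed to 1443 and 94.7 CPM with imiquimod and to 234 and 10428 CPM with DMSO.

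Of 16027 genes tested, 1537 were higher with imiquimod, which is 9.59%, and 1896 were lower, which is 11.8% (edgeR's quasi-likelihood test, Benjamini-Hochberg adjusted p under 0.05). Together these are 3433 genes, or 21.4%. The libraries of the 2 treatments did not overlap in 3426 of them. That follows largely from choosing genes by a test of the same libraries and is no separate support. Changes of at least 4-fold were seen in 643 higher and 1287 lower genes, and changes of at least 16-fold in 196 higher and 230 lower genes. The median log2 fold change of all tested genes was −0.09. With scaling by library size alone that median was −0.76, and 551 genes were higher and 3608 lower. In simulated counts of this design, 67, 67 and 66 genes were changed by 2-fold, 4-fold and 16-fold. Of these 1.49%, 44.8% and 98.5% were recovered, and 11 unchanged genes were called. Far fewer genes changed there than were called here. The adjusted threshold was therefore stricter, and these shares do not carry over to the data. The median standard error of a fold change was 0.51 (log2), so many changes near 2-fold may go uncalled with 2 libraries a group. With any 1 wild-type library left out in turn, 770 of the 3433 genes kept their call each time, 380 higher and 390 lower. Without imiquimod replicate 1, DMSO replicate 1 or DMSO replicate 2, 560, 593 and 604 genes were higher and 532, 1015 and 808 were lower. Counts of list members below are those with all libraries, and a gene given with its own values and a call is among the 770 unless the text says otherwise. A setting that leaves 1 library in a group assumes that it varies like the other groups.

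**Figure D1:**
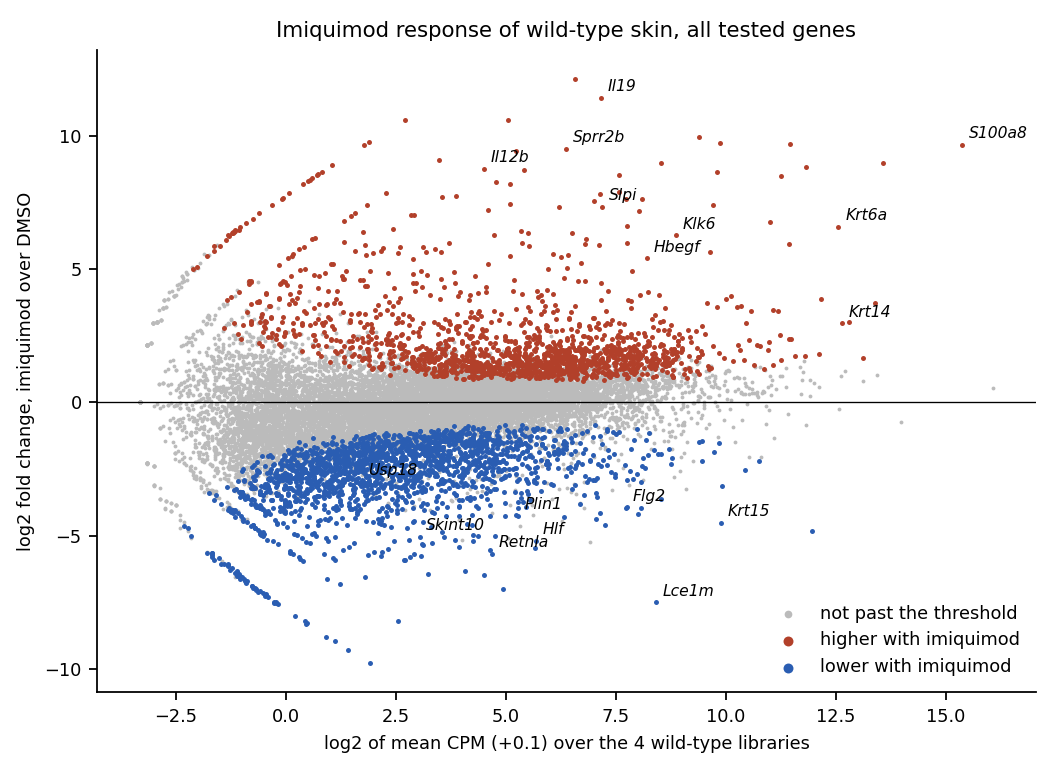
Each point is 1 of the 16027 tested genes, with its mean level over the 4 wild-type libraries (log2 of the mean CPM plus 0.1) on the x axis and its log2 fold change, imiquimod over DMSO, on the y axis. Genes that passed an adjusted p of 0.05 are coloured, 1537 higher and 1896 lower, and the labelled genes are among those with values in the text.

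Genes of the cornifying wound epidermis had the highest median fold change of the 63 gene lists compared. Of 22 tested wound keratins, small proline-rich proteins and late cornified envelope proteins of the LCE3 group, 21 rose and 0 fell, with a median log2 fold change of 7.86 against −0.09 for all genes. The exception was Sprr3, and 19 or 20 were higher with single libraries left out. Krt6a, a keratin of the outer root sheath that epidermis makes after wounding, had 12075 and 11761 CPM with imiquimod, against 93.9 and 153 CPM with DMSO (log2 fold change 6.59 ± 0.54, adjusted p = 2.45e-05). Krt6b, its near-identical partner, had 7335 and 7094 CPM, against 22.2 and 9.7 CPM with DMSO (log2 fold change 8.83 ± 0.95, adjusted p = 9.85e-05). Both libraries with imiquimod were above both with DMSO for these keratins. Sprr1b (chromosome 3, 92344116 to 92346096, minus strand, GRCm39), a small proline-rich protein that is cross-linked into the cornified envelope, had 1609 and 1692 CPM with imiquimod, against 7.52 and 12.1 CPM with DMSO (log2 fold change 7.39 ± 0.58, adjusted p = 2.45e-05). Sprr2h had 501 and 524 CPM, against 2.91 and 4.06 CPM with DMSO (log2 fold change 7.18 ± 0.56, adjusted p = 2.45e-05). Each of the next 5 genes of the SPRR2 cluster, on chromosome 3, was below 10 CPM in both DMSO libraries. Sprr2e had 2453 and 1256 CPM, against 3.01 and 1.49 CPM with DMSO (log2 fold change 9.72 ± 0.90, adjusted p = 5.62e-05), Sprr2d 7082 and 4043 CPM, against 8.73 and 4.75 CPM (9.70 ± 0.96), and Sprr2b 100.4 and 230.4 CPM, against 0.502 and 0.0495 CPM (9.51 ± 1.27). Sprr2i had 1752 and 916 CPM, against 2.11 and 0.743 CPM with DMSO (log2 fold change 9.94 ± 1.13, adjusted p = 1.31e-04). Sprr2k had 17.2 and 8.42 CPM and no count in either DMSO library, which makes it at least 129-fold higher with a floor of 3 counts over the DMSO group (adjusted p = 4.37e-04).

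The late cornified envelope genes of the LCE3 group rose with them. Lce3b was the gene with the highest fold change among those named by rule, with 240.1 and 138 CPM with imiquimod and 0.10 and 0 CPM with DMSO (a ratio of 6085 with a 95% counting interval of 1092 to 240385, adjusted p = 6.81e-05). Lce3a had 832 and 625 CPM, against 1.1 and 1.68 CPM with DMSO (log2 fold change 8.99 ± 1.07, adjusted p = 1.91e-04). Lce3c had 496 and 353 CPM, against 3.41 and 5.15 CPM with DMSO (log2 fold change 6.62 ± 0.61, adjusted p = 5.62e-05), and Lce3d 339 and 221 CPM, against 1.0 and 1.39 CPM (7.84 ± 0.72). The SPRR2 and LCE3 genes are related copies within each family, and how the counting treated reads with several matches is not stated. The split of counts among copies is therefore uncertain, and the rise of the family as a whole is the firmer measurement.

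The promoters of Sprr2e, Sprr2d, Sprr2b and Sprr1b are shown because these genes moved together and each window holds a match to the same short motif. Each window runs from 250 bases before to 50 after the RefSeq gene start (GRCm38.p6). Capitals mark matches to TGANTCA, the core bound by AP-1 factors of the JUN and FOS families, searched on both strands.
Sprr2e (GRCm38.p6, chr3:92351893-92352192, plus strand): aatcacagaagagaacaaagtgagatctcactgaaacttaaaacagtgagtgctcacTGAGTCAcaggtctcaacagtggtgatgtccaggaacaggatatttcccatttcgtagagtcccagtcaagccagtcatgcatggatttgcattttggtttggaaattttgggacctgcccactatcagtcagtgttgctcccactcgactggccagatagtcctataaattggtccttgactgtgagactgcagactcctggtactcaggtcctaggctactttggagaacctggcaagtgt
Sprr2d (GRCm38.p6, chr3:92338890-92339189, plus strand): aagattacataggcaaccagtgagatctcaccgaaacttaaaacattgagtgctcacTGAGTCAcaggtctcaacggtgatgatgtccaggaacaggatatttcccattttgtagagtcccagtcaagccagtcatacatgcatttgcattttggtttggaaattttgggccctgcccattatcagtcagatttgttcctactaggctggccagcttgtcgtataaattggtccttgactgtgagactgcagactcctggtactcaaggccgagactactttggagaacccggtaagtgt
Sprr2b (GRCm38.p6, chr3:92316455-92316754, plus strand): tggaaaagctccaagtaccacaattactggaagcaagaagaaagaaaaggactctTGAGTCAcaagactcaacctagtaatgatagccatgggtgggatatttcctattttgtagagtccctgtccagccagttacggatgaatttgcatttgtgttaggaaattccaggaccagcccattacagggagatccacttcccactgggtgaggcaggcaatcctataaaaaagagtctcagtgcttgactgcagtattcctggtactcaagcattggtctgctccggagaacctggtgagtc
Sprr1b (GRCm38.p6, chr3:92438730-92439029, minus strand): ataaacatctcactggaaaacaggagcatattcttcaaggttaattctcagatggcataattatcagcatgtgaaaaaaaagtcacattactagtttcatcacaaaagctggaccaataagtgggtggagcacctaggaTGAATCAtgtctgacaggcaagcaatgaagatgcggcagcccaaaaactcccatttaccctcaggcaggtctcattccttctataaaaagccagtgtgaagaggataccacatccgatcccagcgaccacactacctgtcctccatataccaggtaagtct
The match in Sprr2e and Sprr2d lies at −193 to −187 from the start, in Sprr2b at −195 to −189 and in Sprr1b, as TGAATCA, at −111 to −105. The 3 SPRR2 windows also share long stretches outside the motif, so they are not independent examples. Of the genes higher with imiquimod, 8.57% held TGANTCA in this window, against 6.03% of the genes lower and 5.93% of all 11403 tested genes with a window. For the C/EBP motif TTGCNNAA the shares were 10.3% of genes higher, 9.12% of genes lower and 8.87% of all. For the gamma-activated site TTCNNNGAA they were 7.89%, 5.96% and 6.92%, for the interferon-stimulated element (GAAA, any 2 bases, GAAA) 2.80%, 3.46% and 3.11%, and for the NF-kB motif (GGGA, any base, TTTCC) 0.934%, 0.294% and 0.465%. Among genes higher by at least 4-fold the shares were 12.2% for AP-1, 14% for C/EBP, 6.99% for the gamma-activated site, 3.28% for the interferon-stimulated element and 1.53% for NF-kB. Over all 27025 promoters in the table, tested or not, they were 7.93%, 10.8%, 8.47%, 3.49% and 0.385% in the same order, so the AP-1 and C/EBP shares of all genes higher were close to those of all promoters. These shares are descriptions of the letters in the windows.

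The antimicrobial and protease-inhibitor genes that IL-17 is known to induce in keratinocytes were higher as well. Of 24 tested IL-17 target and antimicrobial genes, 14 rose and 1, the lysozyme Lyz1, was lower, with a median of 3.68, and 11 to 14 were higher with single libraries left out. S100a8 and S100a9 encode the subunits of calprotectin, an antimicrobial protein made by neutrophils and by inflamed keratinocytes. S100a8 had 123589 and 45155 CPM with imiquimod and 151 and 59.1 CPM with DMSO (log2 fold change 9.65 ± 1.57, adjusted p = 0.00139), and S100a9 29275 and 18839 CPM with imiquimod and 75.3 and 20.4 CPM with DMSO (8.98 ± 1.35). The imiquimod replicates themselves differed by more than 1.5-fold for both, a gap that is small beside the distance to DMSO. Slpi, a secreted inhibitor of neutrophil elastase, had 321 and 258 CPM, against 2.01 and 1.58 CPM with DMSO (log2 fold change 7.34 ± 0.59, adjusted p = 2.45e-05). The acute-phase proteins Saa1 and Saa3 had 101 and 68.6 CPM and 73.6 and 104 CPM with imiquimod, against 0.10 and 0.248 CPM and 1.71 and 0.594 CPM with DMSO (8.72 ± 1.24 and 6.35 ± 0.93 on the log2 scale). Lcn2, which binds bacterial siderophores, had 55.3 and 79.9 CPM, against 0.10 and 0.297 CPM with DMSO (log2 fold change 8.19 ± 1.27, adjusted p = 0.00107). Defb4, a beta-defensin, had 8.38 and 12.5 CPM, against 0.301 and 0 CPM with DMSO (a ratio of 100.1 with a 95% counting interval of 33.9 to 488, adjusted p = 2.88e-04). Elf3, an epithelial ETS factor, had 13 and 30.5 CPM, against 0.903 and 0.842 CPM with DMSO (log2 fold change 4.63 ± 0.67, adjusted p = 6.97e-04). Lpo, lactoperoxidase, had 18.8 and 25.4 CPM, against 0 and 0.0495 CPM with DMSO (a ratio of 642 with a 95% counting interval of 115 to 25392, adjusted p = 6.99e-05).

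Inhibitors of cysteine and serine proteases, and the epidermal proteases they face, rose together. Of 16 tested stefins, cystatins and epidermal serpins, 13 rose and 0 fell, with a median of 5.67, and 9 did so without DMSO replicate 2 and 11 or 13 without another library. Serpinb3b had 124 and 117 CPM, against 5.12 and 2.52 CPM with DMSO (log2 fold change 5.0 ± 0.47, adjusted p = 5.62e-05), and Serpinb1a, an inhibitor of neutrophil serine proteases, had 70.4 and 85.5 CPM, against 8.83 and 8.76 CPM with DMSO (3.15 ± 0.38). Stfa2, a stefin of myeloid cells whose copies are near-identical, had 142 and 218 CPM, against 3.61 and 0.941 CPM with DMSO (log2 fold change 6.37 ± 0.79, adjusted p = 2.65e-04). Of 15 tested kallikreins and their inhibitors, 9 rose and 0 fell, with a median of 2.57, and 5 did so without DMSO replicate 2. Klk6, a trypsin-like protease, had 1163 and 675 CPM, against 13.5 and 10.4 CPM with DMSO (log2 fold change 6.26 ± 0.58, adjusted p = 5.62e-05). Klk13 had 240.4 and 198 CPM, against 4.82 and 2.43 CPM with DMSO (5.94 ± 0.59), Klk9 529 and 605 CPM, against 46.6 and 18.1 CPM (4.14 ± 0.55), and Klk10 3231 and 1254 CPM, against 188 and 189.6 CPM (3.57 ± 0.54). Both imiquimod libraries lay above both DMSO libraries for each of these proteases.

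**Figure D2:**
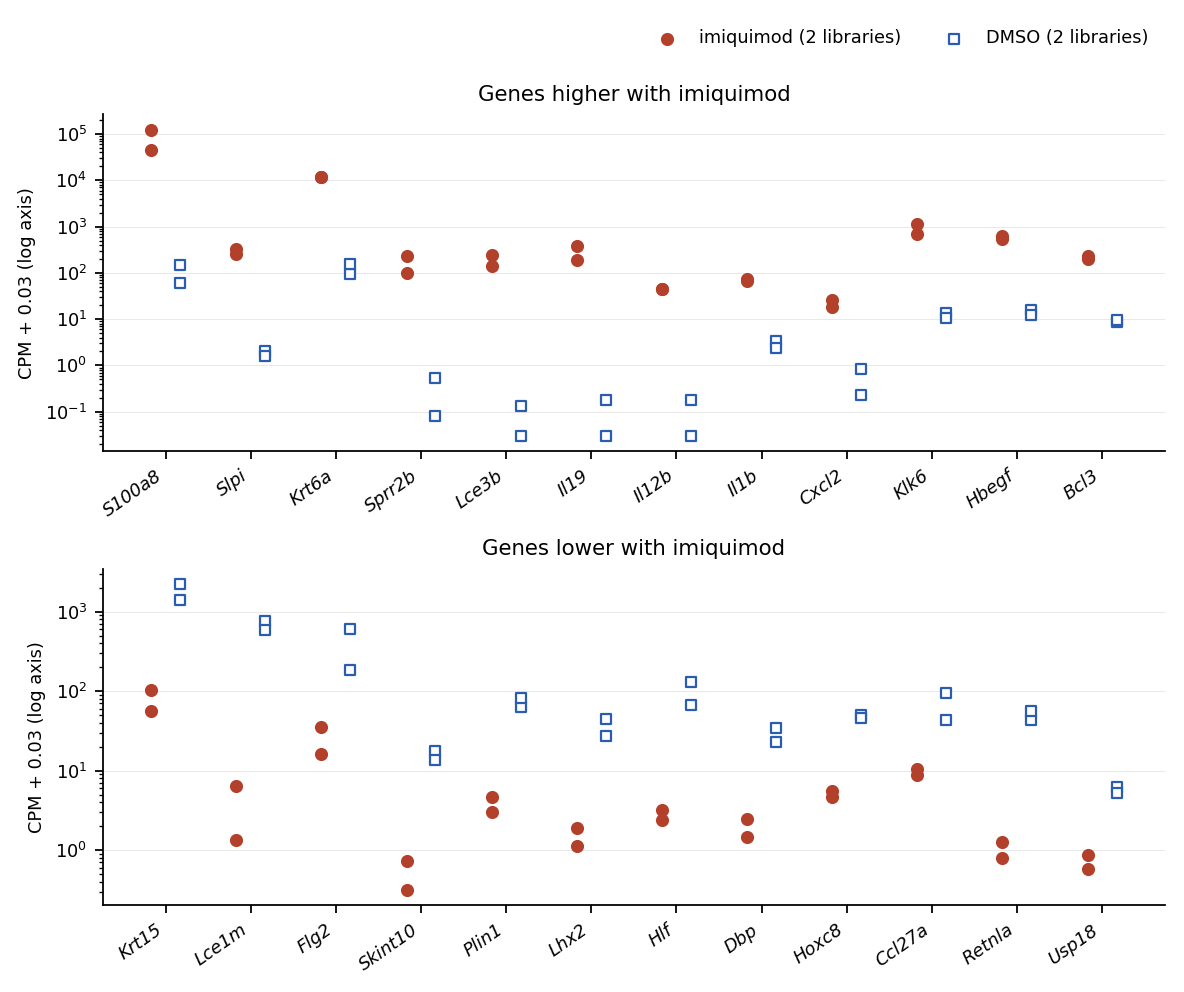
Levels of 24 genes described in the text in the 4 wild-type libraries, in CPM on a log axis with 0.03 added so that 0 can be drawn; filled circles are the 2 imiquimod libraries, drawn left, and open squares the 2 DMSO libraries, drawn right. For the 12 genes in the upper row both imiquimod libraries lie above both DMSO libraries, and for the 12 in the lower row both lie below.

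The upstream cytokines of the IL-23 axis rose while IL-17 itself was at the edge of detection. Il12b, which encodes the p40 subunit shared by IL-12 and IL-23, had 44 and 45.7 CPM with imiquimod and 0 and 0.149 CPM with DMSO (a ratio of 449 with a 95% counting interval of 153 to 2178, adjusted p = 6.99e-05). Il23a, the p19 subunit that is particular to IL-23, had 4.8 and 8.03 CPM, against 0.10 and 0.0495 CPM with DMSO (a ratio of 90.8 with a 95% counting interval of 24.8 to 755, adjusted p = 2.54e-04). Il17a was read at 0.283 and 0.234 CPM with imiquimod and at 0 in both DMSO libraries, at least 2.6-fold higher (adjusted p = 0.0416), and this call was lost without imiquimod replicate 1 (adjusted p = 0.164), without imiquimod replicate 2 (adjusted p = 0.0666), without DMSO replicate 1 (adjusted p = 0.121) and without DMSO replicate 2 (adjusted p = 0.226). Il17f had 0.377 and 0.701 CPM, against 0.201 and 0.0495 CPM with DMSO (adjusted p = 0.244). Il22 and Ifng were too low to be tested. Of 18 tested cytokines and receptors of this axis, 4 rose, with Il17b the remaining one, and 3 were lower, among them Il12rb2 and Il17rd. Scaling by library size alone gave 3 higher and 4 lower. With single libraries left out, 3 or 4 genes of this list were higher and 1 to 4 lower, 1 without imiquimod replicate 1 and 2 without DMSO replicate 2.

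Epidermal cytokines of the IL-10 and IL-1 families were higher. Il19, a relative of IL-10 that keratinocytes make, had 379.7 and 193 CPM with imiquimod and 0 and 0.149 CPM with DMSO (a ratio of 3112 with a 95% counting interval of 1065 to 15092, adjusted p = 6.81e-05), and Il24 had 7.16 and 3.43 CPM, against 0.10 and 0 CPM (a ratio of 174 with a 95% counting interval of 30.8 to 6889.7, adjusted p = 0.00139). Of 18 tested genes of STAT3 and gp130 signalling, 4 rose and 3, the receptor genes Il6ra, Lifr and Il20ra, fell, against 3 and 0 without imiquimod replicate 1 and 3 and 2 without either DMSO library, and 3 and 4 with scaling by library size alone. Stat3, the factor through which IL-6, IL-22 and IL-19 act, had 821 and 781 CPM, against 176 and 146 CPM with DMSO (log2 fold change 2.31 ± 0.38, adjusted p = 0.00148). Of 21 tested cytokines and receptors of the IL-1 family, 9 rose and 1, Il1f10, fell. With 1 library left out 6 to 8 were higher, 6 without either DMSO library, and the call of Il1f10 was lost each time. Il1b had 65.5 and 73.9 CPM, against 3.41 and 2.38 CPM with DMSO (log2 fold change 4.60 ± 0.60, adjusted p = 3.79e-04), and Il36g, an IL-1 relative of psoriatic epidermis, 123 and 86.8 CPM, against 8.73 and 4.26 CPM (4.03 ± 0.51). Il33, a nuclear alarmin of keratinocytes, had 259 and 345 CPM, against 17.3 and 16.1 CPM with DMSO (4.18 ± 0.45). Il1rn, the natural antagonist of the IL-1 receptor, had 697 and 647 CPM, against 95.4 and 67.5 CPM with DMSO (3.05 ± 0.45), so agonists and antagonist were higher together. Il4ra, a receptor chain for IL-4 and IL-13, had 1048 and 297 CPM, against 46 and 36.5 CPM with DMSO (log2 fold change 4.03 ± 0.58, adjusted p = 6.88e-04).

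Of 20 tested NF-kB subunits and feedback genes, 6 rose and 0 fell, and without DMSO replicate 2 only 2 did, or 4 without imiquimod replicate 1. Bcl3, an atypical inhibitor that works with NF-kB dimers in the nucleus, had 229 and 197 CPM, against 8.83 and 9.36 CPM with DMSO (log2 fold change 4.55 ± 0.44, adjusted p = 6.81e-05). Tnfaip2 had 191 and 293 CPM, against 37.6 and 23.9 CPM with DMSO (2.98 ± 0.45). Tnf was low, with 1.6 and 1.87 CPM, against 0.502 and 0.099 CPM with DMSO (log2 fold change 2.72 ± 0.68, adjusted p = 0.0136), and lost its call without imiquimod replicate 1 (adjusted p = 0.0513) and without DMSO replicate 2 (adjusted p = 0.15). Among 12 ligands and receptors of the EGF receptor family 6 rose and 1, Btc, was lower, and 2, 3, 4 and 3 were higher without DMSO replicate 2, DMSO replicate 1, imiquimod replicate 1 and imiquimod replicate 2. In each of these 4 settings 0 were lower, and with scaling by library size alone 2 were higher and 1 lower. Hbegf, a ligand released at wound edges, had 526 and 631 CPM, against 15.3 and 12 CPM with DMSO (log2 fold change 5.41 ± 0.44, adjusted p = 2.45e-05), and Nrg1 had 12.1 and 7.56 CPM, against 0.903 and 1.53 CPM (2.97 ± 0.38). Of 15 AP-1 and stress factors 5 rose and 3 fell (Klf6, Atf3 and Fosb), but 2 to 4 rose and 0 or 3 fell with single libraries left out, 2 rising without DMSO replicate 2 and 3 without imiquimod replicate 1 or DMSO replicate 1; scaling by library size alone gave 1 higher and 3 lower. The immediate early gene Ier3 had 2646 and 1503 CPM, against 138 and 122 CPM with DMSO (log2 fold change 4.0 ± 0.41, adjusted p = 6.99e-05). Jun had 403 and 404 CPM, against 145 and 109.7 CPM with DMSO (log2 fold change 1.67 ± 0.31, adjusted p = 0.00304); its call was lost with scaling by library size alone (adjusted p = 0.065).

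At the receptor that imiquimod binds, Tlr7 had 0.377 and 0.234 CPM with imiquimod and 0.702 and 0.743 CPM with DMSO (adjusted p = 0.186). Of 21 tested genes of Toll-like receptor 7 sensing 6 were higher and 0 lower, but 1 or 2 were without imiquimod replicate 1 (1), DMSO replicate 1 (1) or DMSO replicate 2 (2). With scaling by library size alone 2 were higher and 3 lower. Myd88, the adaptor, was higher under all of these, with 99 and 144 CPM, against 31.6 and 31 CPM with DMSO (log2 fold change 1.95 ± 0.30, adjusted p = 0.00108). Of 9 tested markers of plasmacytoid dendritic cells 3 were lower and 0 higher, and 3 fold changes were positive, with 1 lower without imiquimod replicate 1 and 2 without DMSO replicate 1 or DMSO replicate 2. Siglech, a receptor that marks plasmacytoid dendritic cells, had 0 counts in both imiquimod libraries and 1.71 and 0.792 CPM with DMSO, at least 14.2-fold lower (adjusted p = 0.00174). In bulk skin, fewer cells of a type and less RNA per cell cannot be told apart.

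Genes of the interferon response gave no higher call with all libraries. Of 33 tested genes of the type I interferon response, 0 were higher and 6 were lower, with 27 of 33 fold changes below 0 and a median of −0.97 against −0.09 for all genes. The shares among all tested genes were 9.59% higher and 11.8% lower. The calls were few without any 1 library, at 1 or 2 lower, and 16 were lower with scaling by library size alone. Usp18, which removes the ubiquitin-like protein ISG15 and restrains the interferon receptor, kept its call in all 4 settings that left out a wild-type library, with 0.848 and 0.545 CPM, against 6.12 and 5.25 CPM with DMSO (log2 fold change −2.99 ± 0.59, adjusted p = 0.00432). Isg15 itself had 6.78 and 11.5 CPM, against 33.8 and 39.5 CPM with DMSO (log2 fold change −2.01 ± 0.60, adjusted p = 0.0313), a call lost without imiquimod replicate 1 (adjusted p = 0.214), without imiquimod replicate 2 (adjusted p = 0.0592), without DMSO replicate 1 (adjusted p = 0.0898) and without DMSO replicate 2 (adjusted p = 0.113). Of 24 tested genes of the interferon gamma response and MHC class I, 0 passed in either direction by edgeR, while 1 was higher and 5 lower at an unadjusted p under 0.05 and DESeq2 called 2 lower. Without imiquimod replicate 2, 1 was higher and 4 were lower.

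Neutrophil chemokines, and receptors found on neutrophils, were higher. Of 11 tested genes of this group 8 rose and 0 fell, with a median of 5.46, and 6 to 8 were higher with single libraries left out. Cxcl2 had 18.5 and 26.1 CPM, against 0.803 and 0.198 CPM with DMSO (log2 fold change 5.64 ± 0.75, adjusted p = 4.29e-04), and Cxcl5 had 11 and 46.9 CPM, against 0 and 0.198 CPM with DMSO (7.74 ± 1.32). Their receptor Cxcr2 had 25.5 and 68.4 CPM, against 2.41 and 0.347 CPM with DMSO (5.21 ± 0.81), and Fpr1, a receptor for bacterial formyl peptides, 3.06 and 2.81 CPM, against 0 and 0.0495 CPM (a ratio of 89.4 with a 95% counting interval of 15.7 to 3567, adjusted p = 7.82e-04). Of 18 tested neutrophil markers, 12 rose and 1 was lower, and 10 to 12 were higher with single libraries left out. Among the 12 were the calprotectin genes S100a8 and S100a9, the surface proteins and receptors Ly6g, Cxcr2, Csf3r, Clec4d, Clec4e and Trem1, and Mmp8, Retnlg and Hdc. Genes of the primary granules, which neutrophils transcribe as they mature in marrow, were not higher. Elane had no count in any of the 4 libraries, Mpo had 0.0471 and 0.0779 CPM with imiquimod and 0.201 and 0 CPM with DMSO, and Prtn3, the 1 lower gene, had 0.283 and 0.234 CPM with imiquimod and 4.11 and 2.18 CPM with DMSO (adjusted p = 0.0116). These 3 were chosen after their values were seen, and the call of Prtn3 was lost without imiquimod replicate 1 (adjusted p = 0.092), without imiquimod replicate 2 (adjusted p = 0.0503) and without DMSO replicate 1 (adjusted p = 0.0655). Trem1 had 7.96 and 5.22 CPM, against 0.201 and 0.0495 CPM with DMSO (a ratio of 69.7 with a 95% counting interval of 23.5 to 340.2, adjusted p = 5.56e-04). Clec4e had 1.22 and 2.18 CPM and no count with DMSO, at least 17.1-fold higher (adjusted p = 5.07e-04), and Ly6g, the surface protein used to sort neutrophils, had 0.612 and 0.623 CPM and no count with DMSO, at least 6.21-fold higher (adjusted p = 0.0166). Ly6g lost its call without imiquimod replicate 1 (adjusted p = 0.0687) and without DMSO replicate 2 (adjusted p = 0.119). Hdc, which makes histamine in neutrophils and mast cells, had 84.1 and 50.6 CPM, against 3.01 and 4.26 CPM with DMSO (log2 fold change 4.20 ± 0.46, adjusted p = 1.03e-04).

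Calls among markers of other leukocytes mostly depended on single libraries. The shares among all tested genes were 9.59% higher and 11.8% lower. Of 22 tested monocyte and macrophage markers 5 were higher (Cd14, Arg1, Fcgr4, Itgam and Spp1) and 1, Gpnmb, lower, but 0 or 1 were higher without imiquimod replicate 1 (1), DMSO replicate 1 (1) or DMSO replicate 2 (0). Scaling by library size alone gave 2 higher and 2 lower. Ccl4, a chemokine for monocytes, had 12.8 and 16.4 CPM, against 0.201 and 0.0495 CPM with DMSO (a ratio of 142 with a 95% counting interval of 48.4 to 692, adjusted p = 0.00142). Ccl27a, the chemokine that keratinocytes make to hold skin-homing T cells, fell to 8.66 and 10.4 CPM with imiquimod, against 94.8 and 43.1 CPM with DMSO (log2 fold change −2.86 ± 0.50, adjusted p = 0.00216). Of 16 Langerhans and dendritic cell markers 2 were higher (Cd24a and Cd80) and 2 lower (Mgl2 and Cd1d1), and 1 and 0 to 2 with single libraries left out, or 1 and 4 with scaling by library size alone. Cd24a, which keratinocytes also make, had 200.1 and 217 CPM, against 30.9 and 25.8 CPM with DMSO (log2 fold change 2.88 ± 0.29, adjusted p = 6.91e-05), and Cd207, the langerin of Langerhans cells, 1.65 and 3.74 CPM, against 6.32 and 6.14 CPM (adjusted p = 0.239). Of 17 T cell and NK cell markers 2 were higher (Icos and Cd5) and 3 lower (Prf1, Cd247 and Cd3e), and 0 or 1 in either direction without imiquimod replicate 1, DMSO replicate 1 or DMSO replicate 2. In contrast, 7 of 10 tested Skint genes fell and 0 rose, 5 to 9 with single libraries left out. These encode membrane proteins of keratinocytes, of which the founding member selects epidermal gamma delta T cells in the mouse. Skint10 had 0.283 and 0.701 CPM, against 17.9 and 13.5 CPM with DMSO (log2 fold change −5.04 ± 0.51, adjusted p = 9.85e-05), and Skint5 0.283 and 0.545 CPM, against 20.3 and 12.9 CPM (−5.35 ± 0.54). Retnla, a resistin-like molecule of type 2 responses, fell to 0.753 and 1.25 CPM with imiquimod, against 43.2 and 57 CPM with DMSO (log2 fold change −5.67 ± 0.77, adjusted p = 4.69e-04).

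**Figure D3:**
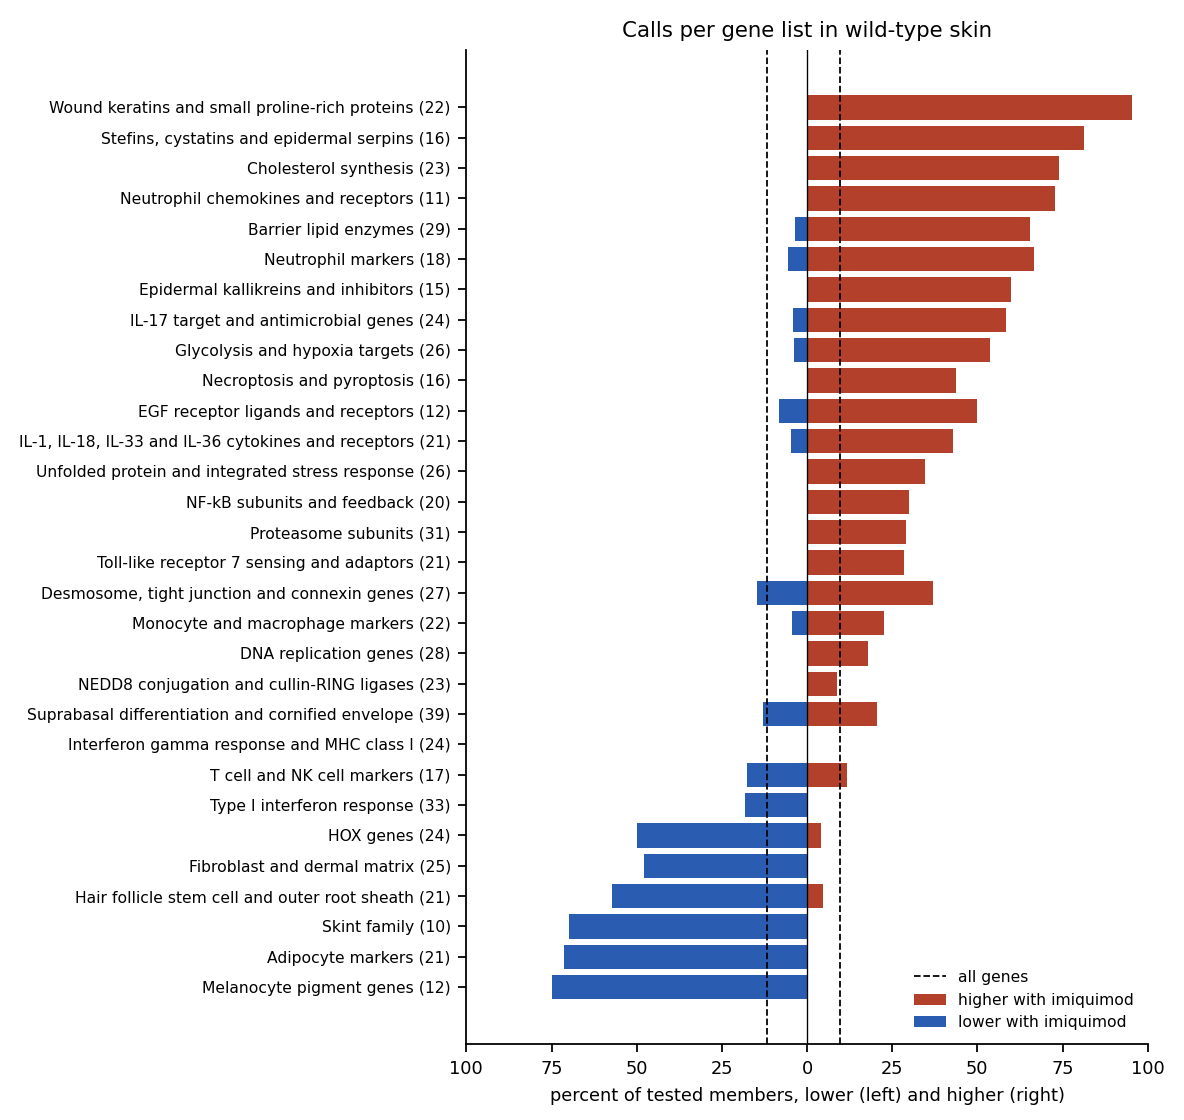
Share of the tested members of 30 gene lists that were higher (bars to the right) or lower (bars to the left) with imiquimod in wild-type skin, in percent of tested members, with the number tested after each name. Dashed lines mark the shares over all 16027 genes, 9.59% higher and 11.8% lower. Wound keratins and small proline-rich proteins reach furthest right, and lists of melanocyte, adipocyte and Skint genes furthest left.

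Within the epidermis, genes of ordinary cornification were called in both directions, the lower ones at about the share of all tested genes (11.8%). Of 39 tested genes of suprabasal differentiation and the cornified envelope 8 were higher and 5, among them the LCE1 genes Lce1m, Lce1l and Lce1c, lower, against 4 and 7 without DMSO replicate 2, and 4 and 11 with scaling by library size alone. Without imiquimod replicate 1 the counts were 5 and 3, and without DMSO replicate 1 they were 7 and 3. Lce1m, an envelope gene of the LCE1 group, fell to 1.32 and 6.31 CPM with imiquimod, against 768 and 590.2 CPM with DMSO (log2 fold change −7.50 ± 0.87, adjusted p = 1.57e-04). Flg2, a filaggrin relative of the granular layer, fell to 16.1 and 35.1 CPM, against 605 and 186 CPM with DMSO (log2 fold change −3.95 ± 0.71, adjusted p = 0.00251). Other envelope genes rose in the same libraries. Rptn, repetin, had 182 and 224 CPM, against 6.92 and 3.86 CPM with DMSO (log2 fold change 5.25 ± 0.83, adjusted p = 0.00125), Cnfn, cornifelin, 376 and 352 CPM, against 57.9 and 37.5 CPM (2.93 ± 0.39), and Tgm3, a transglutaminase that cross-links envelope proteins, 155 and 96.8 CPM, against 7.32 and 7.82 CPM (4.05 ± 0.60). Krt10, a keratin of suprabasal cells, had 194 and 1191 CPM, against 2614 and 3094 CPM with DMSO (log2 fold change −2.04 ± 0.88, adjusted p = 0.111) and did not pass. Its imiquimod replicates lay further from each other, on the log scale, than the fitted difference between the treatments.

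Among keratins of the basal layer, Krt14 and Krt15 went opposite ways, while Krt5 did not pass. Krt14 had 13495 and 9156 CPM, against 1639 and 1256 CPM with DMSO (log2 fold change 2.97 ± 0.46, adjusted p = 0.00107), whereas Krt15, a keratin of resting basal cells and of the follicle bulge, fell to 56.7 and 102 CPM with imiquimod, against 2228 and 1397 CPM with DMSO (log2 fold change −4.52 ± 0.45, adjusted p = 6.91e-05). Of 21 tested basal genes 4 were higher and 4 lower, with 1 higher without imiquimod replicate 1, DMSO replicate 1 or DMSO replicate 2 and with scaling by library size alone, and 2 lower without imiquimod replicate 1. Of 27 desmosome, tight junction and connexin genes 10 were higher and 4 lower (Gjb5, Dsg2, Pkp2 and Cldn7), and 4 or 5 higher and 1 lower without any 1 of the same 3 libraries. Scaling by library size alone turned the balance, with 4 higher and 6 lower. The connexins also split. Gjb6, connexin 30, had 2150.1 and 949 CPM, against 7.72 and 53.5 CPM with DMSO (log2 fold change 5.65 ± 0.84, adjusted p = 8.27e-04), and Gjb5, connexin 31.1, 6.07 and 15.3 CPM, against 95.2 and 59.4 CPM (log2 fold change −2.86 ± 0.52, adjusted p = 0.00259). Of 24 tested epidermal transcription factors 6 were higher and 3 lower, with 14 fold changes positive and 10 negative and a median of 0.24. Scaling by library size alone gave 2 higher and 3 lower. Among those higher, Ehf had 271 and 291 CPM, against 36 and 16.4 CPM with DMSO (log2 fold change 3.43 ± 0.64, adjusted p = 0.00309), and Ovol1, a factor that takes basal cells out of the cycle, 281 and 225 CPM, against 73.7 and 63.7 CPM (1.88 ± 0.34).

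Enzymes that build the lipid barrier rose as a group. Of 29 tested members 19 rose and 1, the lipoxygenase Alox12e, was lower, with a median of 1.60, and 9 were higher without DMSO replicate 2 and 10 with scaling by library size alone. Cers3, the synthase of very long chain ceramides, had 412 and 256 CPM, against 44.3 and 40.5 CPM with DMSO (log2 fold change 2.98 ± 0.38, adjusted p = 3.51e-04). Sult2b1, which makes cholesterol sulfate, had 112 and 53.9 CPM, against 11 and 9.95 CPM with DMSO (2.99 ± 0.44), and Smpd1, acid sphingomyelinase, 433 and 359.5 CPM, against 115 and 82.1 CPM (2.01 ± 0.33). All 23 tested genes of cholesterol synthesis had fold changes above 0 and 17 of them passed, with a median of 1.59. These calls depended on single libraries: 2 were higher without DMSO replicate 2, 6 without DMSO replicate 1 or imiquimod replicate 1, 12 without imiquimod replicate 2, and 4 with scaling by library size alone. Cyp51, the lanosterol demethylase, kept its call, with 1421 and 775 CPM, against 182 and 158 CPM with DMSO (log2 fold change 2.69 ± 0.49, adjusted p = 0.00284). In the sebaceous gland list 2 of 22 were higher and 6 lower, against 1 and 1 without imiquimod replicate 1 and 1 and 4 without DMSO replicate 2. Scd3, a fatty acid desaturase of sebocytes, fell to 23 and 29.7 CPM with imiquimod, against 672 and 293 CPM with DMSO (log2 fold change −4.20 ± 0.63, adjusted p = 8.53e-04), whereas Fabp5, an epidermal fatty acid carrier on the same list, had 4446 and 4084 CPM, against 431 and 369.7 CPM (log2 fold change 3.41 ± 0.53, adjusted p = 0.00107).

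Genes of glycolysis and of the response to low oxygen were higher. Of 26 tested, 14 rose and 1, Pfkm, was lower, with a median of 1.5, and 4 were higher without DMSO replicate 2, 9 without imiquimod replicate 1, and 4 with scaling by library size alone. Hif1a, the subunit that oxygen destabilises, had 579 and 861 CPM, against 95.7 and 122 CPM with DMSO (log2 fold change 2.72 ± 0.40, adjusted p = 7.89e-04). Slc16a3, the lactate exporter, had 149 and 114 CPM, against 11.9 and 11.6 CPM with DMSO (3.48 ± 0.43), and Egln3, a prolyl hydroxylase that HIF induces, 146 and 165 CPM, against 25.7 and 20.3 CPM (2.76 ± 0.36). Of 26 genes of the unfolded protein and integrated stress responses 9 were higher and 0 lower, 5 without imiquimod replicate 1 and 5 with scaling by library size alone. Trib3 had 162 and 49.1 CPM, against 8.43 and 6.68 CPM with DMSO (log2 fold change 3.81 ± 0.59, adjusted p = 0.0011), and Calr, a chaperone of the endoplasmic reticulum, 3719 and 1740.1 CPM, against 606 and 606 CPM (2.17 ± 0.42). Of 31 proteasome subunits 9 were higher, but 0 were without imiquimod replicate 1 or DMSO replicate 1 or with scaling by library size alone, and 1 was without DMSO replicate 2. Of 29 NRF2 antioxidant targets 6 rose and 3 were lower (Ftl1, Aldh3a1 and Gclc), and with 1 of imiquimod replicate 1, DMSO replicate 1 or DMSO replicate 2 left out 6 were higher and 0 lower. Nfe2l2, which encodes NRF2, had 224 and 184 CPM, against 56.4 and 43.6 CPM with DMSO (log2 fold change 2.03 ± 0.33, adjusted p = 0.00153), Slc7a11, the cystine importer, 77.1 and 253 CPM, against 2.11 and 4.95 CPM (5.52 ± 0.94), and the glutathione transferase Gsta4 191 and 108 CPM, against 3.71 and 3.17 CPM (5.44 ± 0.50).

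Genes of inflammatory cell death were also higher. Of 16 tested genes of necroptosis and pyroptosis 7 rose and 0 fell, and 6 or 7 with single libraries left out. The pore-forming gasdermins of skin were among them, as was the cytokine Il1b, which is also counted above in the IL-1 family. Gsdma had 618 and 348 CPM, against 84.9 and 74.8 CPM with DMSO (log2 fold change 2.60 ± 0.41, adjusted p = 0.00114), Gsdmc 442 and 464 CPM, against 21.9 and 7.72 CPM (4.94 ± 0.96), and Gsdmc2 44 and 59.5 CPM, against 1.0 and 0.396 CPM (6.30 ± 1.03). The cytosolic DNA sensor Aim2 had 20.1 and 23.9 CPM, against 3.01 and 3.56 CPM with DMSO (2.73 ± 0.47). Lipid mediator genes as a list did not move one way: among 18 eicosanoid enzymes and phospholipases 4 were higher and 2 lower, and 9 fitted fold changes were positive and 9 negative, with 1 lower call without DMSO replicate 2 or imiquimod replicate 1, and 3 higher and 3 lower with scaling by library size alone. Pla2g4d, a cytosolic phospholipase A2 of psoriatic epidermis in humans, had 96.7 and 35.7 CPM with imiquimod and 0.10 and 0 CPM with DMSO (a ratio of 2223 with a 95% counting interval of 399 to 87858, adjusted p = 9.86e-05). Its relative Pla2g4e had 145 and 159 CPM, against 8.93 and 3.22 CPM with DMSO (log2 fold change 4.67 ± 0.52, adjusted p = 1.21e-04), and Ptges, a prostaglandin E synthase, 101 and 166 CPM, against 17.8 and 22.7 CPM (2.72 ± 0.36).

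Some cell cycle genes were higher, in numbers that depended on the libraries and the scaling. The share higher among all tested genes was 9.59%. Of 28 DNA replication genes 5 were higher (Ccne1, Mcm5, Orc1, Mcm3 and Lig1) and 0 lower, with 23 fold changes positive, but 0 were higher without DMSO replicate 1, 1 without imiquimod replicate 1, 3 without DMSO replicate 2, and 0 with scaling by library size alone. Of 25 mitosis genes 3 were higher (Cdc20, Birc5 and Plk1) and 0 lower, with 21 fold changes positive, and 1 was higher without DMSO replicate 1 or imiquimod replicate 1 and 4 without DMSO replicate 2. Cdc20 kept its call in the settings that left out a library, with 39.3 and 67 CPM, against 4.21 and 15.1 CPM with DMSO (log2 fold change 2.44 ± 0.52, adjusted p = 0.00607). Mki67, the proliferation marker, had 49.96 and 47.2 CPM, against 25.2 and 39.9 CPM with DMSO (adjusted p = 0.452). Among inhibitors of cyclin-dependent kinases and p53 targets 0 of 20 rose and 5 were lower, 3 without DMSO replicate 2 or imiquimod replicate 1. In that list 10 fold changes were positive and 10 negative, with a median of −0.23, and DESeq2 called 1 higher and 5 lower. Cdkn1c, an inhibitor that holds cells in arrest, fell to 0.895 and 1.48 CPM with imiquimod, against 7.02 and 14.9 CPM with DMSO (log2 fold change −3.22 ± 0.52, adjusted p = 0.00138), and Trp53inp1 to 2.21 and 3.51 CPM, against 39.9 and 26.7 CPM (−3.55 ± 0.41).

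The genes that fell include those of most structures below and beside the epidermis. Of 21 tested adipocyte markers 15 fell and 0 rose, with a median of −2.95, and 8 to 12 were lower with single libraries left out, 8 without imiquimod replicate 1. Plin1, the coat protein of fat droplets, had 2.97 and 4.68 CPM with imiquimod, against 63.5 and 82.3 CPM with DMSO (log2 fold change −4.26 ± 0.58, adjusted p = 4.80e-04), and Adipoq, the fat hormone adiponectin, 19.6 and 22.5 CPM, against 199 and 299 CPM (−3.56 ± 0.58). Of 25 fibroblast and dermal matrix genes 12 were lower and 0 higher, but 2 were without DMSO replicate 2 and 3 without imiquimod replicate 1. Dpt, dermatopontin, had 21.3 and 22.3 CPM, against 94.5 and 107 CPM with DMSO (log2 fold change −2.21 ± 0.42, adjusted p = 0.00329). All 21 tested skeletal muscle genes had fold changes below 0 and 12 of them passed, 8, 3, 1 and 4 without DMSO replicate 2, DMSO replicate 1, imiquimod replicate 1 and imiquimod replicate 2. Casq1, calsequestrin of fast muscle, had 15.3 and 12.5 CPM, against 134 and 104 CPM with DMSO (log2 fold change −3.10 ± 0.60, adjusted p = 0.0039). Of 20 endothelial markers 3 were higher (Tie1, Pdpn and Selp) and 0 lower, and 1 or 2 were higher with single libraries left out. With scaling by library size alone 1 was higher and 4 lower.

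Of 21 tested genes of hair follicle stem cells and outer root sheath 12 fell and 1, Plet1, was higher, against 5 and 0 without DMSO replicate 2 and 7 and 1 without imiquimod replicate 1. Lhx2, a factor of follicle stem cells, had 1.08 and 1.87 CPM, against 27.2 and 44.2 CPM with DMSO (log2 fold change −4.61 ± 0.58, adjusted p = 2.77e-04), and the stem cell receptors Lgr5 and Lgr6 had 0.188 and 1.09 CPM and 1.7 and 3.9 CPM, against 5.62 and 15.7 CPM and 28.7 and 12.3 CPM with DMSO (−4.15 ± 0.71 and −2.88 ± 0.53 on the log2 scale). Lgr5 was higher in the hair-rich DMSO library than in the other, while Lgr6 was the reverse. The genes of the hair shaft itself turned with 1 library. Of 28 tested, 5 were lower (Lef1, Hoxc13, Msx2, Krt32 and Crym), and without the hair-rich DMSO replicate 2, 2 were higher, 0 were lower and the median turned to 3.61, against −3.08 with all libraries. Without DMSO replicate 1, 11 were lower, and without imiquimod replicate 2, 3. Melanocyte pigment genes followed the same library in part. Their summed level was 81.0 and 46.8 CPM with imiquimod and 211 and 1099 CPM with DMSO. All 12 tested had fold changes below 0 and 9 passed, but 3 did without DMSO replicate 2. Tyrp1, an enzyme of melanin synthesis, was 1 of the 3, with 0.188 and 0.312 CPM, against 2.01 and 25.1 CPM with DMSO (log2 fold change −5.78 ± 1.06, adjusted p = 0.00278). The part of hair shaft RNA in the melanocyte result was not tested.

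**Figure D4:**
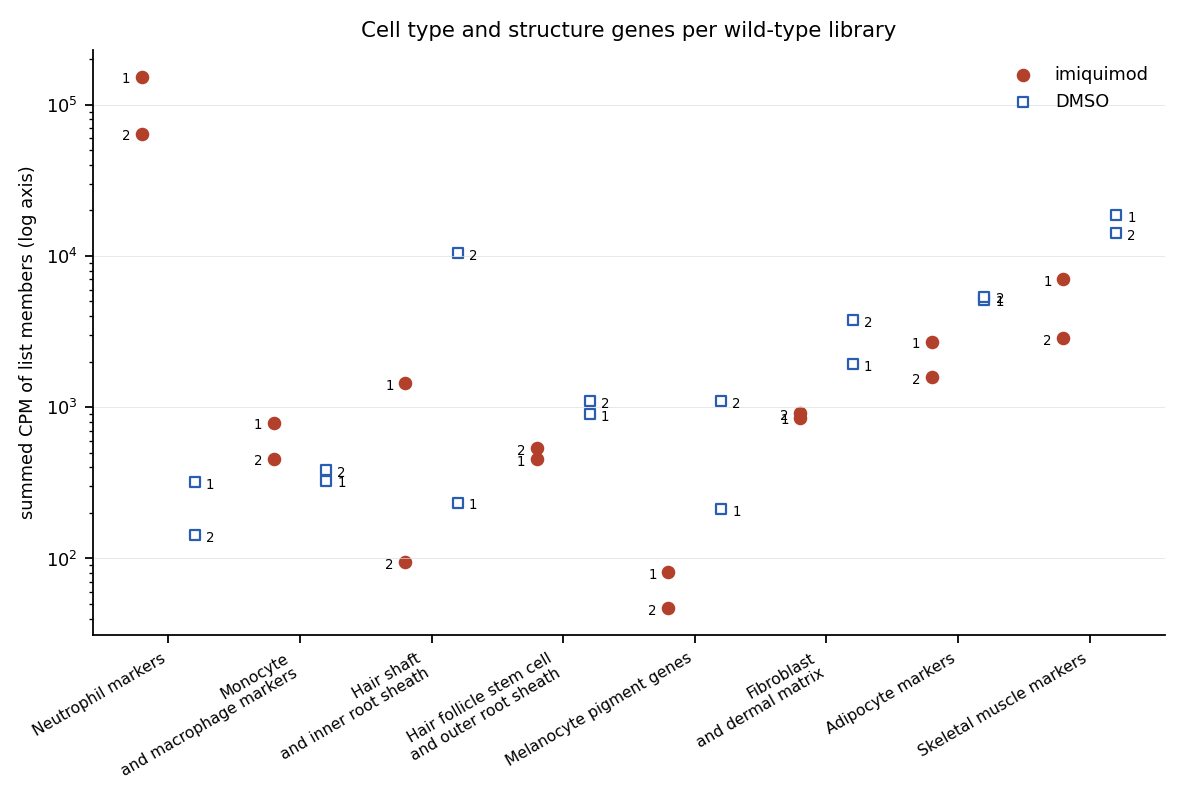
Summed CPM of the members of 8 lists of cell types or structures in each wild-type library, on a log axis; filled circles are the 2 imiquimod libraries, drawn left, and open squares the 2 DMSO libraries, drawn right, with replicate numbers beside the symbols. The second DMSO library stands apart for hair shaft and melanocyte genes, at 10428 and 1099 CPM, and both DMSO libraries lie above both imiquimod libraries for adipocyte, muscle and fibroblast genes. The neutrophil sum is mostly S100a8 and S100a9, which keratinocytes also make.

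Body site is not labelled for single libraries, and genes that carry position moved between the treatments. Of 24 tested HOX genes, which keep a record of position along the body in skin fibroblasts, 12 were lower and 1 higher, and 4 to 6 were lower with single libraries left out. Hoxc8 had 4.57 and 5.53 CPM, against 49.5 and 45.6 CPM with DMSO (log2 fold change −3.24 ± 0.35, adjusted p = 1.03e-04). Of 16 cartilage genes, a tissue of the ear pinna, 10 were at 0 in both imiquimod libraries and 6 at 0 in both DMSO libraries, 3 were tested and 2 were lower (Matn4 and Col11a1), or 1 without imiquimod replicate 1 or DMSO replicate 2. The 16 cartilage genes summed to 1.41 and 1.17 CPM with imiquimod and to 5.82 and 77.8 CPM with DMSO. Most of the DMSO level thus lay in the hair-rich replicate 2. Matn4 had 0 counts with imiquimod and 0.803 and 6.34 CPM with DMSO, at least 40.5-fold lower (adjusted p = 0.00253). The fibroblast list, whose cells carry the HOX code, was also lower, and the part of site or of tissue makeup in these values was not tested.

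Clock output genes were a further group that fell. Of 17 tested circadian genes 8 fell and 1, Cry1, was higher, with 5 lower without imiquimod replicate 1 or DMSO replicate 1. Hlf had 2.35 and 3.12 CPM, against 131 and 67.4 CPM with DMSO (log2 fold change −5.18 ± 0.56, adjusted p = 9.86e-05), Dbp 1.41 and 2.42 CPM, against 34.4 and 22.6 CPM (−3.91 ± 0.55), and Tef 96.5 and 48.2 CPM, against 327 and 228 CPM (−1.94 ± 0.38). These 3 encode the PAR-domain leucine zipper factors that the core clock drives. The labels give no hour of collection, so a difference in hour between the groups cannot be told apart from treatment. Of 12 glucocorticoid targets 3 were higher, among them Lcn2, and 4 lower, and 1 or 3 were higher and 1 to 6 lower with single libraries left out (1 and 1 without imiquimod replicate 1, 1 and 2 without DMSO replicate 1, 3 and 2 without DMSO replicate 2, 3 and 6 without imiquimod replicate 2). With scaling by library size alone 1 was higher and 5 lower. Klf9, a transcription factor of this list, fell to 17 and 49.8 CPM with imiquimod, against 243 and 228 CPM with DMSO (log2 fold change −2.82 ± 0.53, adjusted p = 0.00315).

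Genes with the lowest fold changes by rule outside the lists above included enzymes and hormones of metabolism and patterning. Inmt, a methyltransferase of small amines, had 0 counts in both imiquimod libraries and 6.92 and 7.72 CPM with DMSO, at least 83.2-fold lower (adjusted p = 5.45e-04). Hhip, an antagonist of hedgehog ligands, had 0 counts with imiquimod and 1.61 and 8.66 CPM with DMSO, at least 58.3-fold lower (adjusted p = 0.00176). Pck1, a key enzyme of glyceride and glucose synthesis, fell to 0.141 and 0.935 CPM with imiquimod, against 37.6 and 51.4 CPM with DMSO (log2 fold change −6.48 ± 1.25, adjusted p = 0.00364). Mstn, myostatin, the inhibitor of muscle growth, had 0.0471 and 0.857 CPM, against 39.9 and 25.5 CPM with DMSO (log2 fold change −6.33 ± 0.99, adjusted p = 0.00118), and Msx1, a homeobox factor, 0.188 and 0.234 CPM, against 1.91 and 34.8 CPM (log2 fold change −6.42 ± 1.14, adjusted p = 0.00229). Hamp2, a hepcidin relative, had 0 and 0.0779 CPM, against 6.82 and 16 CPM with DMSO (DMSO over imiquimod 443 with a 95% counting interval of 79 to 17529, adjusted p = 0.00382), and Oxtr, the oxytocin receptor, 0.0471 and 0.234 CPM, against 10.2 and 3.71 CPM (log2 fold change −5.72 ± 0.82, adjusted p = 6.96e-04). On the high side the genes named by rule outside the lists were Tcf23, a basic helix-loop-helix factor, with 102 and 46.9 CPM, against 0.10 and 0.099 CPM with DMSO (a ratio of 816 with a 95% counting interval of 279 to 3961, adjusted p = 2.45e-05), and U90926. U90926 had 11.4 and 1.87 CPM with imiquimod and 0 counts with DMSO, at least 66.7-fold higher (adjusted p = 0.00848). Its call was lost without imiquimod replicate 1 (adjusted p = 0.0519) and without DMSO replicate 2 (adjusted p = 0.063).

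Nedd8, the gene deleted in the other arm of the study, was present in wild-type skin at 684 and 376 CPM with imiquimod and 203 and 269.6 CPM with DMSO (log2 fold change 1.16 ± 0.50, adjusted p = 0.11), a difference that did not pass. Of 23 tested genes of NEDD8 conjugation and cullin-RING ligases 2 were higher (Dcun1d3 and Ube2m) and 0 lower, and 0 to 4 were higher with single libraries left out, 0 without either DMSO library. Of 18 genes of SUMO conjugation 1, Sae1, was higher and 1, Senp7, lower, and neither call held without imiquimod replicate 1, DMSO replicate 1 or DMSO replicate 2. The shares among all tested genes were 9.59% higher and 11.8% lower, so neither list stood out from them.

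The response of wild-type skin was set beside that of Cre-negative skin, which carries floxed Nedd8 and no Cre. In Cre-negative skin 1307 genes were higher with imiquimod, which is 8.15% of those tested, and 1614 were lower, which is 10.1%. Of the wild-type calls 48.6% were also called there in the same direction, 2 genes were called in the opposite one, and the shared 1668 genes are 57.1% of the Cre-negative calls. The median log2 fold change in Cre-negative skin was 1.09 for the genes higher in wild-type skin and −1.72 for the genes lower in it. In the list of wound keratins and SPRR genes, 21 of 22 were higher in wild-type skin and 20 without Cre. Among the 24 antimicrobial and IL-17 target genes, 14 were higher in wild-type skin and 17 without Cre, and of the 23 cholesterol genes 17 and 20. Of the 26 glycolysis and hypoxia genes, 14 were higher in wild-type skin and 4 without Cre. For type I interferon genes, 6 of 33 were lower in wild-type skin and 5 without Cre.

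Tested directly, the response in wild-type skin minus that in Cre-negative skin passed in 0 of 16027 genes in either direction by edgeR's quasi-likelihood test. At an unadjusted p under 0.05 there were 1466 genes. DESeq2 called 35 higher and 18 lower, limma voom called 0, and without wild-type DMSO replicate 1 the quasi-likelihood test called 4 lower. The median standard error of the difference was 0.688 (log2). In simulated counts 0%, 5.97% and 72.7% of 2-fold, 4-fold and 16-fold differences were recovered, and 13 genes outside those changed on purpose were called as well. The missing calls therefore do not show that the responses are alike. The smallest adjusted p, 0.0776, belonged to Il12b. Its fold change was 8.76 ± 0.90 in wild-type skin, against 1.02 ± 0.57 without Cre, a difference of 7.73 ± 1.06; fitted values of a gene this close to 0 depend on the prior count. Il12b had 44 and 45.7 CPM with imiquimod and 0 and 0.149 CPM with DMSO in wild-type skin, against 4.45 and 2.15 CPM with imiquimod and 0.895, 1.15 and 2.77 CPM with DMSO in Cre-negative skin. The Cre-negative libraries with imiquimod read as male, and of the 3 with DMSO 2 read as male and 1 as female, so sex differs between the genotypes. With sex as a term the smallest adjusted p of the difference was 0.130. Only the Cre-negative DMSO group held both sexes, so that term rests on its 2 male libraries and 1 female library.

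**Figure D5:**
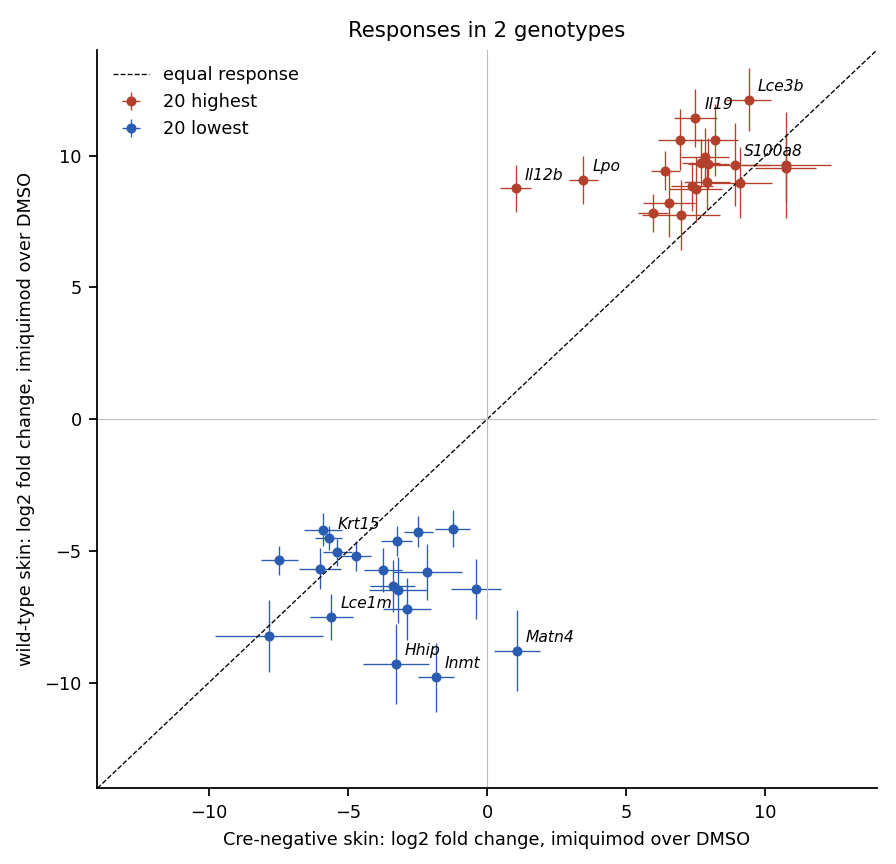
Log2 fold change, imiquimod over DMSO, in wild-type skin (y axis) and Cre-negative skin (x axis) for 40 called genes among those given with values, the 20 with the highest and the 20 with the lowest fold change in wild-type skin; bars are standard errors and the line marks equal responses. No gene's difference between the 2 responses passed an adjusted p of 0.05, and Il12b, at 8.76 and 1.02, has the smallest p of the difference. Fold changes of genes at 0 counts in a group, such as Inmt, Hhip and Matn4, depend on the prior count.

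Nedd8, the targeted gene, had 308 and 151 CPM with imiquimod and 375, 158 and 147 CPM with DMSO in knockout skin, levels that overlap those of wild-type DMSO skin. The deleted part of the gene is not given in the labels, and a 3′ tag outside it would not check the deletion. In knockout skin 8.56% of the tested genes were higher with imiquimod and 2.52% lower. Against knockout skin the responses differed in 4349 genes, 27.1% of those tested: the response in wild-type skin was higher in 1935 and lower in 2414. The knockout libraries read as male with imiquimod and as female with DMSO, so treatment and sex cannot be told apart in that genotype. With sex as a term 435 were higher and 707 lower, and with scaling by library size alone 607 and 3974. The sex term was estimated from the Cre-negative DMSO group alone and assumes the same effect of sex in knockout skin. Without knockout imiquimod replicate 1 the counts were 819 and 1078, without wild-type imiquimod replicate 1 947 and 1373, without wild-type DMSO replicate 1 1078 and 1630, and without wild-type DMSO replicate 2 1161 and 1450. The genes with the highest differences by rule were the cornified envelope genes Lce3b, Sprr2k, Sprr2b, Sprr2i and Sprr2d and the cytokine Il19. Il19 had 379.7 and 193 CPM with imiquimod and 0 and 0.149 CPM with DMSO in wild-type skin, against 21.1 and 23.8 CPM with imiquimod and 57.6, 20.9 and 21.2 CPM with DMSO in knockout skin, and the log2 difference of the responses was 11.97 ± 1.26, adjusted p = 1.49e-04. Sprr2b had 1.14 and 19.7 CPM with imiquimod and 32.6, 29.2 and 40.5 CPM with DMSO in knockout skin, so it was already high there without imiquimod, and the difference was 11.23 ± 1.49, adjusted p = 5.56e-04. On the other side, Nos2, the inducible nitric oxide synthase, had 0 and 0 CPM with imiquimod and 0 and 0.099 CPM with DMSO in wild-type skin, against 69.4 and 34.4 CPM with imiquimod and 0, 0.582 and 0.0282 CPM with DMSO in knockout skin, a difference of −11.28 ± 3.11, adjusted p = 0.0212. Ltf, lactoferrin of neutrophil granules, had 0.141 and 0 CPM with imiquimod and 0.10 and 0.149 CPM with DMSO in wild-type skin, against 40.7 and 2.92 CPM with imiquimod and 0, 0 and 0.0282 CPM with DMSO in knockout skin (−10.20 ± 2.46, adjusted p = 0.0101). With sex as a term the adjusted p of the difference was 0.0510 for Sprr2b, 1 for Nos2 and 0.0766 for Ltf, while Il19 kept its call (adjusted p = 0.0137). The difference of Nos2 was also lost without wild-type DMSO replicate 2 (adjusted p = 1), wild-type imiquimod replicate 1 (adjusted p = 0.0502) and knockout imiquimod replicate 1 (adjusted p = 0.0510), and that of Ltf without wild-type DMSO replicate 2 (adjusted p = 0.134).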

How the data were processed

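RNA from mouse skin was read with QuantSeq 3′ forward libraries, per the labels' protocols. The authors deposited 1 table of raw read counts for 56953 genes and 14 libraries, and gene positions follow GRCm39, per the file headers. STAR, featureCounts, DESeq2, GRCm38 and GRCm39 are named in the submitters' processing notes; no source used here gives versions, whether counting used strand, or how reads with several matches were treated, so overlapping, antisense and near-identical genes are uncertain. The deposited gene lengths, another value of that table, were not used. Total counts were 8294616 to 31960197 in the wild-type libraries.

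Counts were scaled by TMM and fitted with 1 mean for each of 6 groups over 14 libraries, which share 1 estimate of the spread (edgeR 4.0.16, R 4.3.3, filterByExpr, quasi-likelihood test, Benjamini-Hochberg adjustment over 16027 genes, threshold 0.05). A standard error is the log2 fold change divided by the root of its F value. Where a group had 0 counts, a fold was bounded with 3 counts for that group in total, and where it had 1 to 3 counts, a ratio with an exact 95% interval was used; both cover counting error only. Tests of difference compared the wild-type response with those of Cre-negative and knockout skin. The method was tested on simulated data. Promoters came from RefSeq windows (GRCm38.p6). Alternatives used DESeq2 1.42.0, limma 3.58.1, other scalings, filters and sample sets, and left out each library; the crossed pairing, the sex term and the reading of hair-rich DMSO replicate 2 were chosen after seeing the data.

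Genes were named by rule: the 15 highest and 15 lowest fold changes among called genes whose libraries do not overlap and whose higher group averages at least 5 CPM, the 10 most abundant genes, the 5 tested members with the smallest p in every list, a fixed set, and the 6 highest and 6 lowest differences between responses. Names given for small counts, and Elane, Mpo and Prtn3, were chosen after their values were seen. The members and the 63 lists (1310 entries, 1292 found, 1189 tested) were chosen with earlier results of these data known.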

Additional observations from a re-analysis of the deposited data

Results flagged for a closer look

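The response to imiquimod differed between wild-type and knockout skin by a test of the difference itself, in which 1935 genes were higher and 2414 lower (edgeR's quasi-likelihood test, adjusted p under 0.05). The knockout libraries read as male with imiquimod and female with DMSO, so sex and treatment cannot be told apart there, and with sex as a term the counts were 435 and 707. Only the Cre-negative DMSO group held both sexes, so the sex term rests on that group alone. It assumes the same effect of sex in knockout skin. Differences below are on the log2 scale, wild-type minus knockout response. Fitted values of genes at or near 0 in a group depend on the prior count and are no bounds.

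Among genes of the cornified envelope the difference was 13.25 for Lce3b, 11.62 for Sprr2k, 11.23 for Sprr2b, 11.04 for Sprr2i and 11.02 for Sprr2d, and it was 11.97 for the cytokine Il19. On the lower side it was −13.98 for Ddx3y, a gene of the Y chromosome, and −9.29 for Hhip. Hhip had 0 counts with imiquimod in both wild-type libraries. For genes of activated or granule-bearing myeloid cells the difference was −12.84 for Ngp, −11.28 for Nos2, −11.19 for Ifitm6 and −10.2 for Ltf. The value of Ngp was 0.141 and 0 CPM with imiquimod and 0.401 and 0 CPM with DMSO in wild-type skin, against 1145 and 187 CPM with imiquimod and 0, 0.485 and 0.0282 CPM with DMSO in knockout skin. Ifitm6 had 3.01 and 1.95 CPM with imiquimod and 20.2 and 20.2 CPM with DMSO in wild-type skin, against 276 and 65 CPM with imiquimod and 0.255, 0.971 and 0.451 CPM with DMSO in knockout skin. With sex as a term, estimated outside knockout skin, the calls of Lce3b, Il19, Sprr2k, Sprr2i, Sprr2d, Ifitm6 and Hhip were kept. Those of Ddx3y (adjusted p = 0.169), Ngp (0.0502), Sprr2b (0.0510), Ltf (0.0766) and Nos2 (1) were lost. With single libraries left out, calls were lost for Ddx3y (adjusted p = 0.172) and Ngp (1) without wild-type DMSO replicate 1, for Nos2 (1) and Ltf (0.134) without wild-type DMSO replicate 2, for Nos2 (0.0502) and Hhip (0.0522) without wild-type imiquimod replicate 1, for Nos2 (0.0510) without knockout imiquimod replicate 1, and for Hhip (1) without knockout imiquimod replicate 2.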

How the results depend on the processing

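In wild-type skin 1537 genes were higher and 1896 lower. With scaling by library size alone 551 were higher and 3608 lower, and the median of all genes moved to −0.76; with only the wild-type libraries in the model 713 were higher and 1150 lower. With single wild-type libraries left out 560 to 1945 were higher and 532 to 1586 lower. Between these and the remaining settings 0 shared calls turned direction. Both counts stayed within 1.5 times in 9 further settings, among them DESeq2 with 2009 and 2291, limma voom with 1392 and 1507, upper-quartile scaling with 1242 and 2137, and no filter with 1733 and 2302. Same-numbered wild-type libraries did not deviate together (r = −0.191 over 16027 genes); the replicate block gave 1440 higher and 1975 lower, and the crossed replicate block gave 1431 and 1977. For wild-type minus Cre-negative response, the replicate block gave 0 and 0, DESeq2 35 higher and 18 lower, no filter 100 and 103, and single libraries left out 0 higher and 0 to 4 lower. For wild-type minus knockout response, the replicate block gave 1717 and 2227, library size alone 607 and 3974, the sex term 435 and 707, and single libraries left out 819 to 2174 higher and 1078 to 2466 lower. Over 137 named genes, 2276 values kept direction and call, 30 lost the call, 6 gained it and 6 turned sign. None of the turned values passed: Mki67 was at −0.13 with library size alone, and Ngp at 0.065 with limma voom. With single wild-type libraries left out Nos2 ranged over −3.67 to 0, Ltf over −4.01 to 0.20, and Ngp over −4.14 to 3.56, the highest without DMSO replicate 2, imiquimod replicate 2 and DMSO replicate 1. The causes were not tested. With 2 libraries a group, many changes near 2-fold may go uncalled.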

Other observations

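Matrix-degrading enzymes were a group not described above. Of 25 tested matrix proteases, inhibitors and plasminogen genes, 7 were higher and 4 (Mmp2, Mmp11, Mmp14 and Timp3) lower with imiquimod in wild-type skin. The shares among all tested genes were 9.59% higher and 11.8% lower. In this list 14 fold changes were positive and 11 negative. With single libraries left out 3 to 6 were higher and 1 to 3 lower, 3 higher without DMSO replicate 1, and 1 lower without imiquimod replicate 1 or either DMSO replicate. Scaling by library size alone turned the balance, with 5 higher and 6 lower. Mmp13, a collagenase, had 3.91 and 5.53 CPM with imiquimod and 0.10 and 0 CPM with DMSO (a ratio of 136 with a 95% counting interval of 24.1 to 5421, adjusted p = 0.00114). Mmp8, the collagenase of neutrophils, had 10.2 and 12 CPM with imiquimod and 0.502 and 0.0495 CPM with DMSO (log2 fold change 5.61 ± 1.05, adjusted p = 0.00318). Timp3, an inhibitor of metalloproteases that binds matrix, had 61.7 and 52.1 CPM with imiquimod and 316 and 523 CPM with DMSO (log2 fold change −2.88 ± 0.42, adjusted p = 7.68e-04). Both imiquimod libraries were above both DMSO libraries for Mmp13 and Mmp8 and below them for Timp3. Proteases were called in both directions, as Mmp2, Mmp11 and Mmp14 were lower.

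Of 9 mitochondrially encoded RNAs and 7 red blood cell genes tested, 0 passed in either direction by edgeR's quasi-likelihood test or DESeq2, and 1 in each list was lower at an unadjusted p under 0.05. Without imiquimod replicate 2, 1 mitochondrially encoded RNA was lower.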
